A study of Mus musculus with 24 samples.

Results

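Untreated CHOP-/- mouse embryonic fibroblasts were compared with untreated wild type fibroblasts to show how the genotypes differed before any stress was applied. The comparison took the 4 arrays titled as untreated CHOP-/- and the 4 titled as untreated wild type, each with the letters A to D, out of 24 arrays in all. The other 16 arrays held cells of the same genotypes given tunicamycin, a blocker of N-linked glycosylation, at 2 µg/ml for 4 h or 8 h. All cells were labelled as primary embryonic fibroblasts, and total RNA was measured. The labels state passage 3 for untreated wild type A, B and C and give no passage for the other 5 untreated arrays. The labels give neither the CHOP allele nor the strain, sex or number of embryos, and do not state whether arrays of 1 group stem from different cultures. The p-values therefore cover the spread among these arrays, which may be technical.

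Ddit3 encodes CHOP, a member of the C/EBP family of transcription factors. When protein folding in the endoplasmic reticulum (ER) is disturbed, the kinase PERK phosphorylates the initiation factor eIF2α, the factor ATF4 is translated, and ATF4 induces Ddit3. CHOP pairs with other C/EBP proteins and with ATF4, and it is best known for raising genes of translation recovery, protein oxidation and cell death during prolonged stress. It is usually scarce in cells that are not stressed.

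Values are deposited probe set signals, given per array in the order A, B, C and D. Differences are on the scale of log2(signal + 5.7) after quantile normalization, CHOP-/- less wild type, with the standard error (SE) of a limma fit over all 24 arrays. This scale understates the change of genes with low signals. A gene was tested if its mean exceeded a signal of 28.6 on that scale, which 5663 of 8251 genes did, and was called when its Benjamini-Hochberg adjusted p was under 0.05.

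Of the 5663 genes tested, 56 were called, which is 0.989% of them. In CHOP-/- cells 35 were higher (0.618%) and 21 were lower (0.371%). Leading rises were Eln, Col15a1 and Strap, and leading falls after Ddit3 were Cap1, AI506816 and Adm. Of the 56, 25 differed at least 2-fold, 16 higher and 9 lower. On the normalized scale 52 of the 56 had no overlap between the 4 arrays of the genotypes, against 302 (5.33%) of all tested genes. Cd200, Bmp1, Glce and Zfp213 overlapped. The median difference over all tested genes was 0.01, and 506 genes (8.94%) had an unadjusted p under 0.05, 5.24% higher and 3.69% lower. Leaving out wild type A lowered the count to 34 and leaving out CHOP-/- A lowered it to 35. With the other arrays left out in turn it was between 39 and 52.

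**Figure D1:**
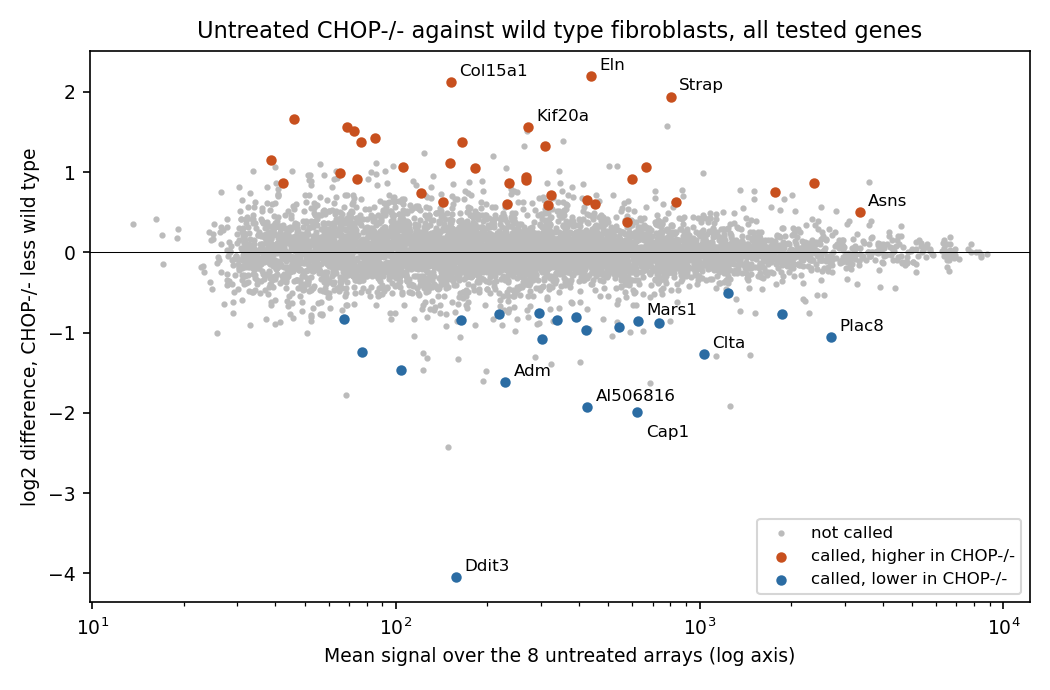
Mean signal of each tested gene over the 8 untreated arrays (horizontal, log axis) against its log2 difference, CHOP-/- less wild type (vertical). Grey points are the genes not called. The 35 orange points were called higher in CHOP-/- cells and reach 2.20 for Eln, and the 21 blue points were called lower, with Ddit3 alone at −4.05.

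Most of the tested leukocyte markers were higher in wild type A and B than in each of the other 6 untreated arrays. The summed signal of the 34 tested leukocyte markers was 10934 in wild type A and 16466 in wild type B, against 4501 and 5605 in C and D. In the CHOP-/- arrays it was 7524, 5624, 4706 and 4352. For 24 of the 34 markers both wild type A and B exceeded all 6 other untreated arrays, which held for 221 (3.9%) of all tested genes. The list had 79 measured markers, and the filter took those with a high mean over all arrays. High values in wild type A and B could bring a marker past it, so shares of the 34 and of all tested genes are not fully alike. Csf1r, the receptor for the macrophage growth factor CSF1, gave 258.1 and 343.8 in wild type A and B, 39 and 77.8 in C and D, and 44.1 to 149.1 in CHOP-/- cells. Lyz2, the macrophage lysozyme, gave 651.7 and 1551.3 in A and B and 134.2 and 167.7 in C and D, and CHOP-/- arrays lay between 53.1 and 278.3. Adgre1, the F4/80 antigen, gave 30.3 and 144.8 against 11.4 and 13.4, with CHOP-/- arrays between 2.4 and 60.1. For Adgre1 wild type A thus lay under the highest CHOP-/- array. Itgam, an integrin of myeloid cells, gave 59.2 and 81.8 against 2.3 and 8.6, with CHOP-/- arrays between 2.1 and 19.8. The T cell genes Cd3e and Cd3g and the neutrophil gene Mpo lay under the filter's signal in all 8 arrays, as did Ptprc, the pan-leukocyte CD45 gene (at most 24.5). Cd79a, a B cell gene, gave 29.5 to 42.4 in wild type and 7.6 to 20.4 in CHOP-/- cells. Rac2, Fgr, Cx3cr1, Pirb, Apbb1ip, Evi2a and Vav1 did not share the pattern, and of these Cx3cr1 (107.3) and Vav1 (95.9) were highest in wild type D. The granulocyte genes Elane and Csf3r did not share it either: Elane was highest in wild type D (61.8) and Csf3r in CHOP-/- A (360.6). Nor did Mmp12, another marker of the list, which gave 993.8, 3231, 141 and 226.4 in wild type cells. In CHOP-/- cells it gave 1065.2, 432.4, 111.9 and 182.5, so CHOP-/- A exceeded wild type A. Cd14 in CHOP-/- A (804.8) came close to wild type A (883.8).

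**Figure D2:**
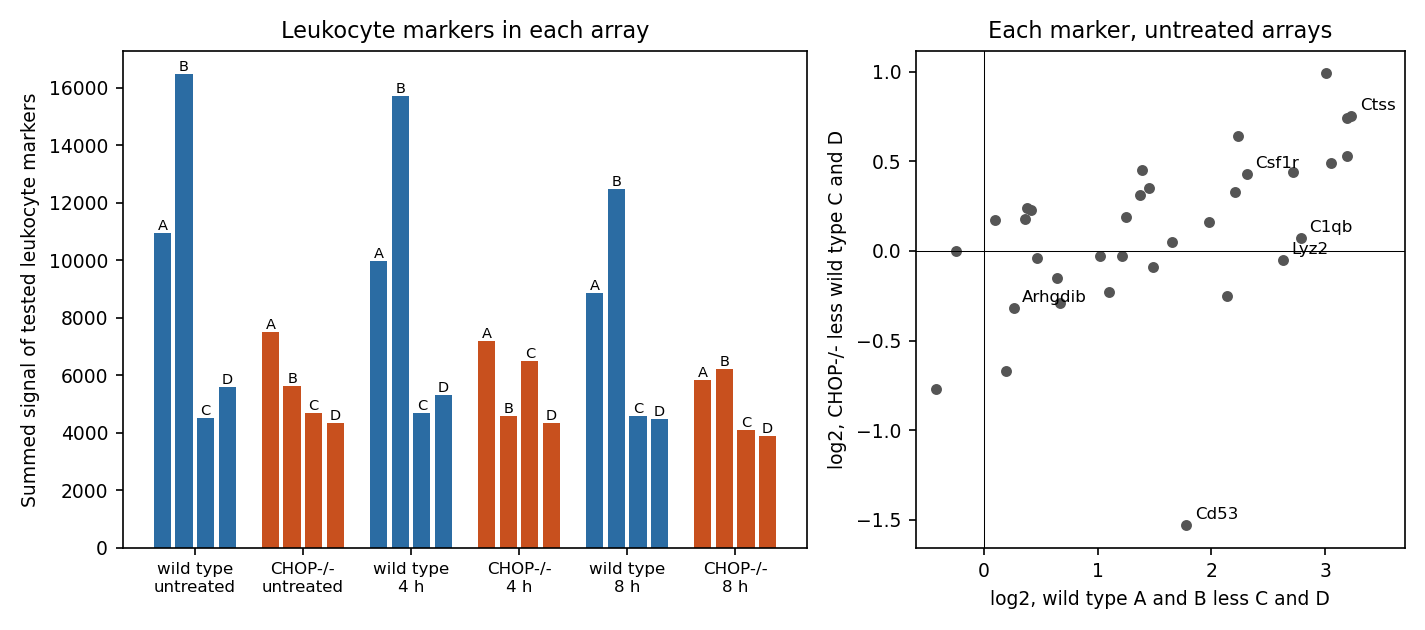
Left, the summed signal of the 34 tested leukocyte markers in each of the 24 arrays, by genotype and time, with the array letter above each bar. Wild type A and B reach 10934 and 16466 untreated and stay above C and D at 4 h and 8 h. Right, for each marker, the log2 difference of untreated wild type A and B from C and D (horizontal) against that of CHOP-/- cells from wild type C and D (vertical).

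None of the 34 markers was called between the genotypes. A negative difference was found in 30 of them, against 2763 of all 5663 tested genes. The median of the markers was −0.63 (4 had an unadjusted p under 0.05). Cd53, a tetraspanin of leukocytes, differed most, at −2.42 (adjusted p = 0.0921). Against wild type C and D alone the median of the list was 0.16, while the median of wild type A and B less C and D was 1.42. The list of chemokines, cytokines and NF-kappaB genes behaved alike, with a median of −0.43 over 29 tested members, none called, and 0.09 without wild type A and B. The letters recurred with time: in wild type cells A and B gave sums of 9993 and 15716 at 4 h and 8854 and 12496 at 8 h, against 4490 to 5301 in C and D. In these RNA samples fewer cells of a type and less RNA per cell cannot be told apart. Without the untreated wild type A and B arrays 28 genes were called, of which 26 were among the 56. Of the named genes, the calls of Asns, Atf5, Mars1, Eln, Mfap4, Bmp1, Tgfb3, Htra1, Adm, Cap1, Plac8, Emc2, Abcb10, Ephb3, Fgfr1op2, Efs and Atp6v1d ended there. That fit had only C and D as untreated wild type arrays, so a call could end without a smaller difference. Abcb10 went from −0.83 to −0.90 and Mars1 from −0.86 to −0.88, whereas Eln went from 2.20 to 1.77 and Bmp1 from 0.92 to 0.62. The part of the leukocyte markers in these results was not tested.

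Markers of other cell types gave no called gene. The defining endothelial genes Kdr and Tek reached at most 29.5 and 7.8 in any array and Pecam1 34.4, and the cartilage gene Col2a1 lay between 2.8 and 18.5. The 2 endothelial markers bright enough to be tested were higher in every CHOP-/- array without passing the test. Eng, a TGF-beta co-receptor, gave 420.9 to 576.6 in wild type and 659.4 to 773.9 in CHOP-/- cells (0.52, adjusted p = 0.323). Flt1, a receptor of vascular endothelial growth factor, gave 111 to 190 and 198.6 to 301.8 (0.57, adjusted p = 0.331). Their unadjusted p was 0.0121 and 0.0128, and the part of endothelial cells in other results was not tested. Fibroblast markers were abundant, with Col1a1 between 5558.2 and 10224.1 and Thy1 between 3047.3 and 4152.9. Of 15 tested fibroblast markers none was called and their median was 0.11. The 1 tested sex-linked gene, Xist, varied from 35.5 to 230.4 within the groups and did not pass the test between them (0.07, adjusted p = 0.979). It gave 114.4, 51.4, 183.5 and 46.5 in wild type cells and 126, 35.5, 230.4 and 60.6 in CHOP-/- cells. Arrays A and C were thus higher than B and D in both genotypes, and the reason was not tested.

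Ddit3 checked the labels. Its signal was 296.2, 215.5, 437 and 249.9 in wild type cells and 7.1, 12.4, 32.3 and 6.9 in CHOP-/- cells. All wild type arrays lay far above all CHOP-/- arrays, of which 3 were under the filter's signal of 28.6. The fitted difference was −4.05 (SE 0.35, adjusted p = 2.27e-07), and Ddit3 was at least 9.8-fold lower when arrays under 28.6 were raised to it. The exact two-sided permutation p was 0.0286, the smallest that 4 arrays against 4 can give. CHOP mRNA was thus measurable in wild type fibroblasts that had received no tunicamycin. It was far from its level under stress, since the wild type mean rose from 300 ± 97.4 (SD, n = 4) untreated to 3652 ± 722 at 4 h and 4383 ± 524 at 8 h. The genotype difference in Ddit3 at 8 h less that in untreated cells was −3.43 (interaction adjusted p = 0.00254). It restates the wild type rise, since the CHOP-/- mean stayed low (14.7 untreated and 20.5 at 8 h).

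Genes reported to need CHOP under stress differed little at baseline. Of 7 tested members of that list 1 was called, Atf5, and the median was −0.23. Atf5, a transcription factor of the same stress response, gave 1012, 902.8, 1179 and 729.4 in wild type cells and 483.7, 496.2, 590.8 and 498 in CHOP-/- cells. The groups did not overlap, and the difference was −0.88 (SE 0.216, adjusted p = 0.0469). The call was weak, since leaving out any one array except wild type D ended it, with adjusted p up to 0.153, and it was 0.328 without wild type A and B. Trib3, a pseudokinase gene, gave 377.5, 152.7, 455.4 and 318.1 against 180.9, 300.4, 169.5 and 391.2, with overlapping groups (−0.34, adjusted p = 0.759). Ppp1r15a, the eIF2α phosphatase subunit GADD34, gave −0.39 (SE 0.197, adjusted p = 0.594). Ero1a, the oxidase that feeds disulfide formation in the ER, gave 603.8 to 786.1 in wild type and 527.8 to 601 in CHOP-/- cells. Its arrays did not overlap, but its difference of −0.23 did not pass the test (adjusted p = 0.7). Car6, a carbonic anhydrase reported to depend on CHOP, was below the filter in all 8 arrays.

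At 8 h the same genes differed more in size: Ppp1r15a reached −0.96 (adjusted p = 0.00464) and Ero1a −0.79 (adjusted p = 0.00194). The change of their genotype difference from untreated to 8 h did not pass the test (interaction adjusted p = 0.999 for each).

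The PERK-ATF4 list, which also holds Atf5, Trib3 and Ppp1r15a from the list above, had 1 called rise. Of 23 tested PERK-ATF4 genes, Asns was called higher and Atf5 lower, and the list median was 0.15, or 0.03 with each array centred on its median. At an unadjusted p under 0.05, 6 members were higher and 2 lower, against 5.24% and 3.69% of all tested genes. Atf4 itself gave 2280, 2018.1, 2102.2 and 2475.6 in wild type cells and 1859.3, 2143.1, 2402.4 and 2226 in CHOP-/- cells. The groups overlapped throughout (0.01, SE 0.0967, adjusted p = 0.986). Asns, which encodes asparagine synthetase, an ATF4 target, gave 2812.9, 2747.1, 3051.4 and 2940.2 against 3028.4, 3986.5, 4999.3 and 3325.2. As deposited, CHOP-/- A lay below wild type C, and after normalization the groups did not overlap. The difference was 0.50 (SE 0.0924, adjusted p = 0.00462). It depended on that step: the adjusted p was 0.298 without normalization, 0.72 with median centring and 0.0871 without wild type A and B. A second Asns probe set gave 0.67 (unadjusted p = 0.0415).

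None of 22 tested ER chaperones and folding enzymes and none of 13 genes of ER-associated degradation was called, with medians of −0.04 and 0.00. By an unadjusted p under 0.05, no chaperone passed, and 2 degradation genes were higher and 2 lower. Hspa5, which encodes the chaperone BiP, gave 3577.3 to 4603.4 in wild type and 3225.1 to 3861.2 in CHOP-/- cells, with a difference of 0.01 after normalization (SE 0.102, adjusted p = 0.986).

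The promoter windows of the called genes were searched for 2 motifs, because ATF4 and CHOP dimers bind known elements. The windows were 300 bases long, 250 before and 50 after each start in RefSeq (GRCm38.p6), and 4600 of the 5663 tested genes had one. The C/EBP-ATF response element was searched as TGATGNAA on both strands, and the CHOP-C/EBP element as TGCAATNCC. The first lay in 127 windows (2.76%) of all tested genes, in 2 of 23 genes called higher and in 1 of 19 called lower. The second lay in 24 (0.522%) of all, and in none of the called genes. The 2 higher genes were Asns and Slc7a7. The site of Asns begins 23 bases before its start. Slc7a7 has 2 sites in the windows of its annotated starts, of which the one 141 bases before a start is shown, and the other begins 1 base before a start. The motif is in capitals. The sites shown stand on the minus strand at chr6:7693210-7693247 and chr14:54418063-54418100.
Asns: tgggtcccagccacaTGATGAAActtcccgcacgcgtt
Slc7a7: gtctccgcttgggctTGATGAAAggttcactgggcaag
The third, Arhgef2, held its match after the start. A match is a description of letters and not of binding. Slc7a7, singled out here after its values were seen, encodes a transporter of basic amino acids. It gave 104.2, 94.1, 64.5 and 89.9 in wild type cells and 130.2, 160.5, 141.6 and 183.5 in CHOP-/- cells, without overlap. The difference was 0.74 (SE 0.17, adjusted p = 0.0315), and it lost its call when wild type A, C or D or CHOP-/- B, C or D was left out (adjusted p up to 0.116) or with median centring (0.0596). The windows of Ddit3, Mars1 and Atf5 held no match.

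Genes of the extracellular matrix gave the largest rises. Eln encodes elastin, the core of elastic fibres. Its signal was 121.2, 72, 160.5 and 186.7 in wild type cells and 561.3, 295.6, 1464.3 and 636.9 in CHOP-/- cells. Every CHOP-/- array exceeded every wild type array, with CHOP-/- C the highest. The difference was 2.20 (SE 0.48, adjusted p = 0.0203), and a second, dim probe set gave 1.42 (unadjusted p = 3.50e-04). The call ended without wild type A, wild type B or CHOP-/- C (adjusted p 0.0644, 0.097 and 0.0972) and was 0.343 without wild type A and B together, when the difference was still 1.77.

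Col15a1 encodes a collagen chain found beside basement membranes. It gave 56.7, 29.8, 41.9 and 84.8 in wild type cells and 326.6, 167.7, 319.1 and 188.1 in CHOP-/- cells. The lowest CHOP-/- array lay well above the highest wild type array. Col15a1 rose by 2.12 (SE 0.274, adjusted p = 1.00e-04) and kept its call in the 22 settings that tested it. It was the only one of 19 tested collagens to be called, and the median of the list was 0.12. Col1a1 gave 0.11 and Col3a1 0.35, neither of which passed the test (adjusted p = 0.764 and 0.598).

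Of 44 tested other matrix proteins 2 were called, Eln and Mfap4, both higher, and the median was 0.08. Mfap4, a microfibril-associated glycoprotein of elastic fibres, gave 37.6, 39.4, 27.1 and 61.7 against 81.6, 64.2, 99.4 and 110.9. The groups did not overlap, though CHOP-/- B and wild type D lay close. The difference of 0.99 (adjusted p = 0.0475) ended with any array left out except wild type D (adjusted p up to 0.156), without normalization (0.0548), with median centring (0.0656) and without wild type A and B (0.343). Bmp1, the protease that trims procollagens and activates lysyl oxidase, gave 329, 313.2, 430.7 and 563.7 against 856.3, 557.5, 789 and 933. CHOP-/- B lay just under wild type D, so the groups overlapped. Bmp1 differed by 0.92 (adjusted p = 0.0433), with a call that ended in 6 of 8 fits with 1 array left out, all but those without wild type D or CHOP-/- B (adjusted p up to 0.188), and also with median centring (0.0648) and without wild type A and B (0.555). It was the one call among 24 matrix proteases and inhibitors, whose median was −0.03.

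Secreted growth factors and their binding partners changed in single members. Igfbp3, which binds insulin-like growth factors, gave 84, 108, 51 and 118.4 in wild type cells and 252.7, 275.6, 199.4 and 233.6 in CHOP-/- cells. The groups stood well apart. Igfbp3 rose by 1.37 (SE 0.234, adjusted p = 0.00213), and its second probe set rose by 1.74. Htra1, a secreted serine protease, gave 2283.7, 2456.5, 2368.7 and 2265.7 against 1358.2, 1514, 835.7 and 1895.3. Wild type arrays were tightly grouped, and CHOP-/- C was the lowest. Htra1 differed by −0.77 (SE 0.167, adjusted p = 0.0188). The call ended without wild type A, wild type B or CHOP-/- C (adjusted p 0.0606, 0.0514 and 0.0538), and it was 0.181 without wild type A and B. These were the 2 calls among 12 genes of the insulin-like growth factor axis.

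Tgfb3, a ligand of the TGF-beta receptors, gave 1516.8, 1003.8, 1529.9 and 1319.6 against 2122.9, 2117.4, 2611.8 and 1970.2. No CHOP-/- array fell within the wild type range. The difference was 0.75 (SE 0.165, adjusted p = 0.0203). It ended without wild type B, CHOP-/- A or CHOP-/- C (adjusted p 0.109, 0.0739 and 0.0825) with median centring (0.295) and without wild type A and B (0.219). With Bmp1 it made 2 calls among 31 TGF-beta and BMP genes, both higher, against a list median of 0.01. Adm, the vasodilator peptide adrenomedullin, moved the other way, with 439.6, 429.6, 303 and 216.5 in wild type cells and 118.2, 98.4, 83.9 and 141.6 in CHOP-/- cells. Wild type A and B were its highest arrays, yet C and D also exceeded every CHOP-/- array. Adm fell by 1.62 (SE 0.296, adjusted p = 0.00462). Without wild type A and B its difference was −1.24 and the call ended (adjusted p = 0.183). It was the only call among 24 glycolysis and hypoxia genes, whose median was −0.05.

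**Figure D3:**
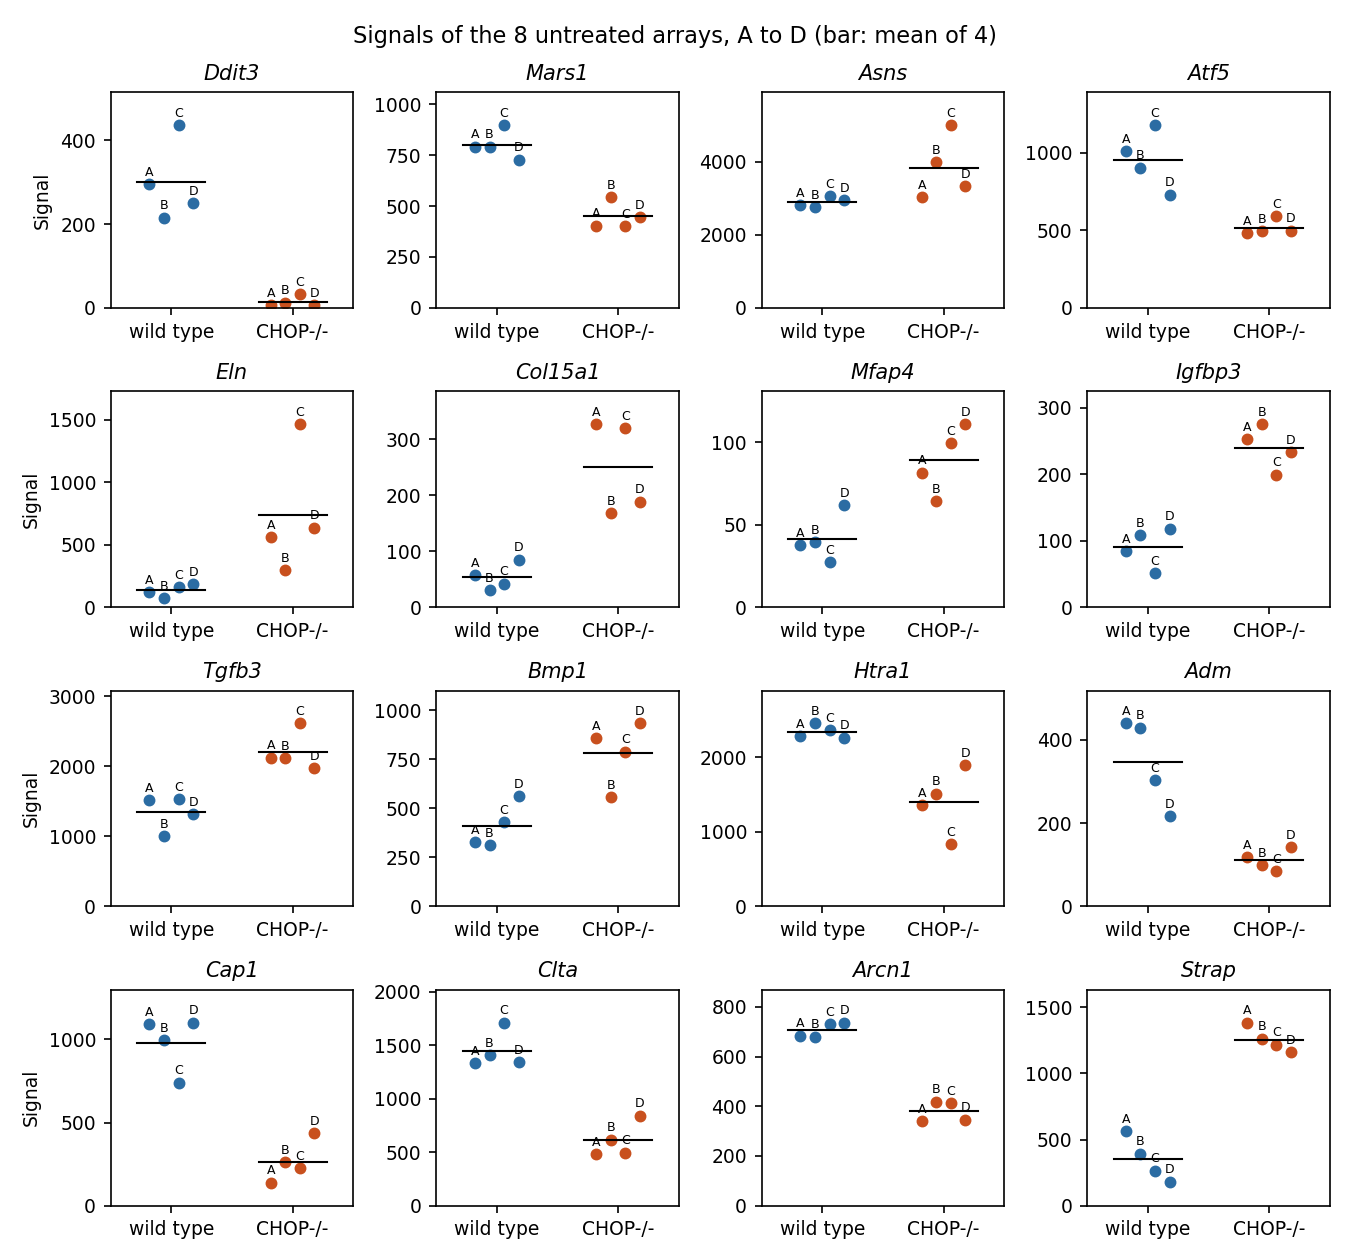
Signals of 16 named genes in the 8 untreated arrays, each panel with its own axis from 0, letters A to D marking the arrays and bars the mean of 4. In the panels of Strap, Igfbp3 and Clta the genotypes stand apart in every array, and in Bmp1 the arrays CHOP-/- B and wild type D overlap.

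Among the falls were Arcn1, Clta and Cap1. Arcn1 encodes the delta subunit of the coatomer that coats vesicles between Golgi and ER. Its signal was 684.7, 679.8, 731.3 and 736.5 in wild type cells and 339.3, 418.9, 413.3 and 346.6 in CHOP-/- cells. Both groups were narrow and lay well apart. Arcn1 fell by 0.93 (SE 0.109, adjusted p = 3.97e-05). A second, dimmer Arcn1 probe set with a mean signal of 125 gave −0.17 (unadjusted p = 0.414). Clta, a clathrin light chain, gave 1335.5, 1405.5, 1711.4 and 1344.7 against 480.5, 618.2, 496.7 and 842.8. It fell by 1.27 (SE 0.155, adjusted p = 4.94e-05) with no overlap. Cap1, an actin-regulating protein, gave 1090.3, 994, 739.6 and 1100.5 against 138.5, 260.1, 226.5 and 436.9. The difference of −1.99 (SE 0.435, adjusted p = 0.0205) separated all arrays but ended without wild type A, B or D or CHOP-/- A or C (adjusted p up to 0.109) and without wild type A and B together (0.218).

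Lonp1, Abcb10 and Emc2 also fell. Lonp1, the ATP-dependent protease of the mitochondrial matrix, gave 437.6, 328.1, 488.2 and 381.5 against 158.3, 191.4, 230.4 and 201.3. It fell by 1.08 (SE 0.17, adjusted p = 0.00109). Abcb10, a mitochondrial transporter, gave −0.83 (adjusted p = 0.0331), and Emc2, a subunit of the ER membrane complex, −0.84 (adjusted p = 0.0211). The Abcb10 call ended with any array left out except CHOP-/- C (adjusted p up to 0.136), and that of Emc2 without wild type A or C or CHOP-/- A or C (up to 0.112). Both also ended without normalization (0.0887 and 0.0531) and without wild type A and B (0.152 and 0.0889). As deposited, CHOP-/- D (169.8) lay above wild type B (168.4) for Emc2. The respiratory chain list had no call among 55 members and a median of −0.15. Of these members 47 were below 0, against 2763 of all 5663 tested genes, and the list was not tested as a set. At an unadjusted p under 0.05, 3 were lower and none higher. Other falls were AI506816 (−1.93), Aebp2 (−1.47), a cofactor of the Polycomb complex that methylates histone H3, Mrvi1 (−1.24), Plac8 (−1.06) and Inpp1 (−0.84), a phosphatase of inositol phosphates. Plac8 gave 4073.7, 4765.6, 3053.5 and 3039 against 1794.8, 2128.8, 1118.1 and 1707.6, highest in wild type A and B. Its call ended without wild type A, wild type B or CHOP-/- C (adjusted p 0.0629, 0.0586 and 0.0651), and the adjusted p was 0.342 without wild type A and B together. That of Aebp2 ended without wild type D (0.0535).

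Among the remaining large rises, Strap stood out by its evenness in CHOP-/- cells. Strap encodes a WD-repeat protein that binds TGF-beta receptors. It gave 564.1, 393.1, 265.3 and 180.9 in wild type cells and 1383.7, 1262.4, 1216.6 and 1161.7 in CHOP-/- cells. Wild type arrays varied among themselves, with A and B the highest, and none came near the CHOP-/- arrays. Strap rose by 1.94 (SE 0.373, adjusted p = 0.00618) and kept its call in all 23 settings tried, as did Ddit3. Against wild type C and D the difference was 2.49 and against A and B 1.39.

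Kif20a, a kinesin of cytokinesis, gave 141.7, 104.5, 159.5 and 124.8 against 333.5, 505.1, 415.4 and 397.7, without overlap. It rose by 1.56 (SE 0.208, adjusted p = 1.34e-04), but a second Kif20a probe set of similar brightness gave −0.07 (unadjusted p = 0.781). No other of 34 tested mitosis genes was called, with a median of −0.04, and none of 37 replication genes, with a median of −0.12. Hoxa5, a positional homeobox gene, gave 44.2, 30.6, 25.7 and 33.9 against 138.7, 74.6, 154.1 and 80.2. It rose by 1.51 (SE 0.278, adjusted p = 0.00462, at least 3.14-fold with arrays under the filter set to it). It was the only call among 18 Hox genes, of which 13 were above 0, against 2900 of all 5663 tested genes. The median of the Hox list was 0.09. The list of 27 other positional and limb transcription factors had no call and a median of 0.18.

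Enzymes, transporters and signalling proteins made up the rest of the 15 largest rises. Amacr, the racemase of branched fatty acid oxidation, gave 18.7, 15.2, 10.5 and 32.8 against 82.2, 72.7, 62 and 74.4. With 3 wild type arrays under the filter it rose at least 2.45-fold (fitted 1.66, adjusted p = 0.00175). Slc7a3, a transporter of cationic amino acids, gave 250.9, 149, 143 and 142.2 against 330, 470.5, 431 and 562.2. It rose by 1.33 (SE 0.196, adjusted p = 4.60e-04), and wild type A was the highest wild type array. Kcnk1 (1.56), a potassium channel subunit, Adi1 (1.38), an enzyme of methionine salvage, Efs (1.11), an adaptor of SRC kinases, and Atp6v1d (1.06), a subunit of the vacuolar proton pump, kept their calls with any 1 array left out. The call of Kcnk1 ended when only the 8 untreated arrays were fitted (adjusted p = 0.118). Efs and Atp6v1d each had an adjusted p of 0.0518 without wild type A and B. Rab3d (1.43), a GTPase of secretory vesicles, Ephb3 (1.15), an ephrin receptor, and Fgfr1op2 (1.07) did not. Rab3d lost its call without wild type C or D or CHOP-/- B or D (adjusted p up to 0.101). Ephb3 lost it without wild type A or B or CHOP-/- A, C or D (up to 0.097), and Fgfr1op2 without wild type B or CHOP-/- A or C (up to 0.0649). Without wild type A and B together the values were 0.385 for Ephb3 and 0.188 for Fgfr1op2.

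The other 21 called genes lay outside the naming rule and are listed for completeness. There were 16 rises from 0.38 to 1.05, namely Ptp4a3, Cd200, Wee1, Tesk1, Mprip, Zfp213, Gpr137b, Slc7a7, Uchl1, Zfpm1, Rcan3, Tmem14c, Fkbp1b, Tom1, Gmppb and Zdhhc16. The 5 falls from −0.51 to −0.97 were Uck2, Fez1, Agap1, Arhgef2 and Glce. Over all 56 calls, 27 held in each of the 8 fits with 1 array left out and 29 ended in at least 1. Without wild type A and B together 30 ended, with no reversal of sign. A fit of only the 8 untreated arrays called 23 genes, 21 of them among the 56. Of the genes described above it kept Ddit3, Col15a1, Strap, Amacr, Kif20a, Hoxa5, Adi1, Igfbp3, Slc7a3, Efs, Atp6v1d, Mars1, Atf5, Arcn1, Lonp1, Clta, Adm, AI506816 and Cap1. The named calls that ended there were Eln (adjusted p = 0.0615), Tgfb3 (0.0592), Plac8 (0.0535), Asns (0.0831), Abcb10 (0.0852), Inpp1 (0.0988), Aebp2 (0.112), Kcnk1 (0.118), Mfap4 (0.132), Rab3d (0.138), Bmp1 (0.148), Mrvi1 (0.156), Ephb3 (0.167), Fgfr1op2 (0.187), Emc2 (0.2), Slc7a7 (0.209) and Htra1 (0.245). For 17 of the 56 genes 18 other probe sets existed. Of the 11 with a mean above the filter 8 had the same sign, and 4 of these, for Asns, Fez1, Igfbp3 and Eln, also had an unadjusted p under 0.05. Those of Kif20a, Agap1 (0.22) and Inpp1 (0.31) had the opposite sign.

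Genes beside Ddit3 on its chromosome were set apart by position. Of 40 other tested genes within 5 Mb of Ddit3 1 was called, Mars1, and the median was 0.05. Mars1, the cytosolic methionyl-tRNA synthetase, is the next tested gene, and its annotated span overlaps that of Ddit3 at their ends. It gave 791.1, 790.8, 898.1 and 728.3 in wild type cells and 404, 544.9, 400.2 and 446 in CHOP-/- cells, with a wide gap between the groups. Mars1 fell by 0.86 (SE 0.162, adjusted p = 0.00539). The difference was −0.88 without wild type A and B, where the adjusted p was 0.0609. At 4 h it was −0.20 (adjusted p = 0.583) and at 8 h −0.02 (adjusted p = 0.974), but the change from untreated to 8 h did not pass the test (interaction 0.84, adjusted p = 0.526). The sources used here do not say which part of either transcript the probe sets read, and Mars1's value is uncertain for that reason. On the other side Pip4k2c, 3 tested genes away, gave 0.64 (adjusted p = 0.4). Its arrays did not overlap, nor did those of Bloc1s1 (−0.41, adjusted p = 0.387), 26 tested genes away on the side of Mars1. Of all tested genes 5.33% did not overlap.

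**Figure D4:**
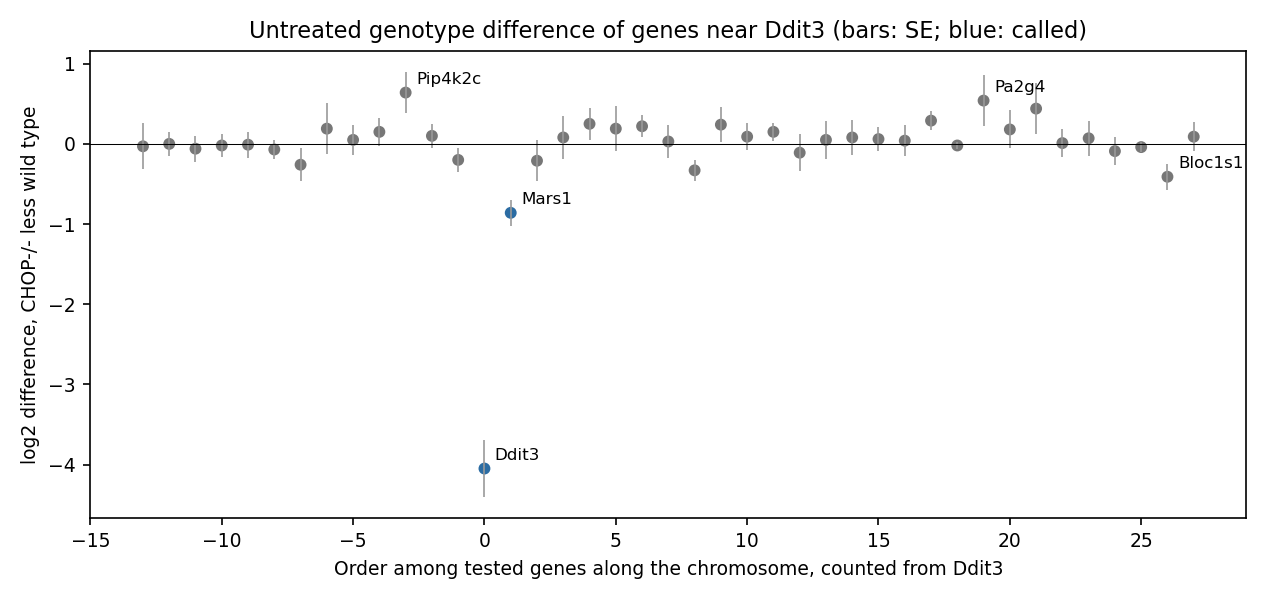
Log2 difference of untreated cells, CHOP-/- less wild type, for Ddit3 and the 40 other tested genes within 5 Mb of it (vertical, bars are the SE), in their order along the chromosome counted from Ddit3 at 0 (horizontal). Ddit3 at −4.05 and Mars1 at −0.86 are the called genes, and the others lie between −0.41 and 0.64.

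Over the whole genome 12 of the 56 called genes (21.4%), Ddit3 and Mars1 among them, had another called gene within 10 tested genes, against 17.3% of all tested genes. Wee1, Adm and Mrvi1 lay within 6 tested genes of each other, and Strap lay 3 from Aebp2. Adm and Mrvi1 were both lower in CHOP-/- cells and Wee1 was higher. Strap was higher and Aebp2 lower.

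The same contrast was read in the 16 arrays of treated cells. There 138 genes (2.44%) were called at 4 h and 237 (4.19%) at 8 h. Of the 56 genes called untreated, 55 had the same sign at 4 h and all 56 at 8 h, and 37 were called at both later times. The exception at 4 h was Fez1 (0.04). Over all 5663 tested genes 3624 had the untreated sign at 4 h, 3767 had it at 8 h, and 48.5% had the same sign at all 3 times. Called at both later times with the untreated sign were 77 of all tested genes. The contrasts at all 3 times share the residual variance of each gene from the same fit, so a repeated call is not an independent result. The median size of the 56 differences was 0.93 untreated, 0.98 at 4 h and 1.05 at 8 h. At 4 h and 8 h the difference was 1.58 and 1.90 for Eln, 1.66 and 1.88 for Col15a1, and −1.31 and −1.84 for Lonp1, which had −1.08 untreated. Hoxa5 (1.51, 0.94 and 0.51) and Igfbp3 (1.37, 0.96 and 0.65) had smaller differences at the later times. None of these shifts passed the test of the interaction.

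Among all tested genes the genotype difference changed from untreated to 8 h in 2 genes (0.0353%). They were Ddit3 and Vcam1, an adhesion molecule named because the count is small (−0.96, adjusted p = 0.0387). Vcam1 did not pass the test untreated (0.05, adjusted p = 0.95). At 8 h same-letter arrays of the genotypes deviated together (r 0.36, 0.42, 0.55 and 0.29 for A to D). With the letter as a block within each time, Vcam1's call ended (adjusted p = 0.145), Ddit3's held (0.00367), and 304 genes were called at 8 h. No gene changed by this test from untreated to 4 h. The later arrays may not be independent of the untreated ones. In wild type cells the deviations from the group mean of the same letter at different times correlated in all 8 pairs with the untreated arrays (r from 0.32 to 0.62 across genes, a description), while different letters gave −0.5 to 0.36. In CHOP-/- cells the same letters gave −0.34 to 0.43.

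**Figure D5:**
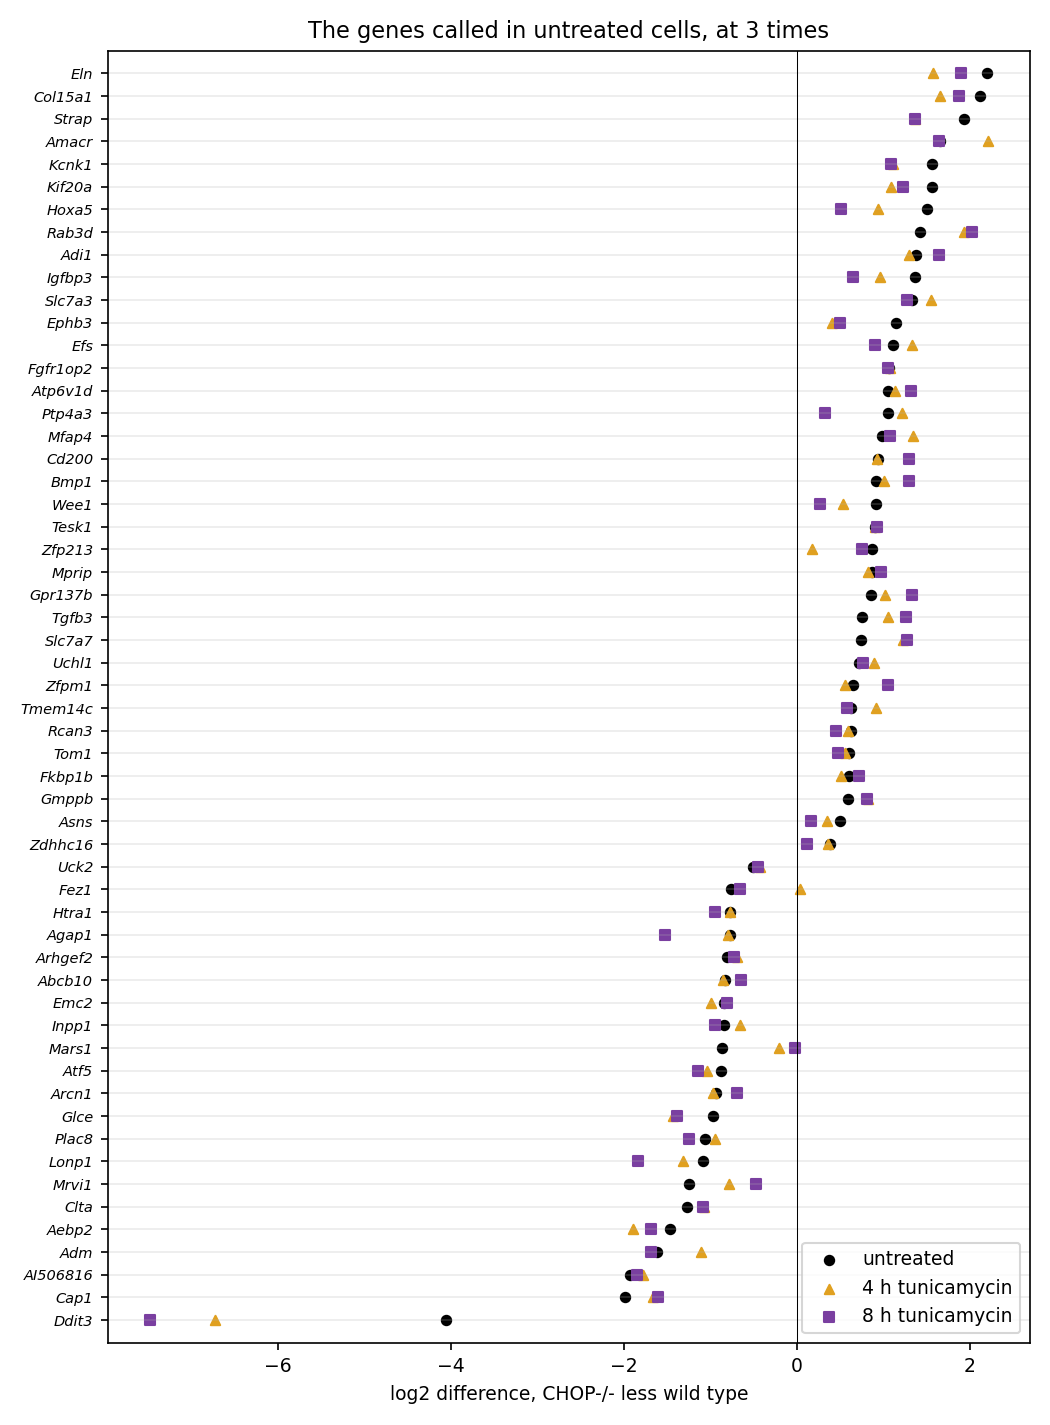
Log2 difference, CHOP-/- less wild type, of the 56 genes called in untreated cells, at each time: circles untreated, triangles 4 h and squares 8 h of tunicamycin. Symbols of a gene lie on the same side of 0 except for Fez1 at 4 h, Mars1 comes close to 0 at 8 h (−0.02), and Ddit3 reaches −7.48.

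Global measures did not separate the genotypes. Array medians lay between 53.4 and 67.7, and 3' to 5' signal ratios were 0.76 to 0.85 for Gapdh and 1.06 to 1.24 for actin. The first principal component of the 8 arrays held 30.1% of the variance and put CHOP-/- C (31.6) and A (13) apart from the other 6 arrays (−10.3 to −0.2). Wild type A and B had the highest values on the second (11 and 22.2, 23.3% of the variance).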

How the data were processed

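Per the labels, total RNA of 24 samples was measured on 1 array each. The deposited values are linear probe set signals (intensity), scaled by the authors: from the values, the mean after trimming 2% of probe sets at each end was 250.1 to 250.2 on every array. The sources used here do not name the software. Probe sets were named through the platform's gene table and RefSeq (GRCm38.p6), used for names and neighbourhood: of 12488 probe sets 66 were controls, 10833 others had 1 symbol (10817 of them in RefSeq), 396 several and 1193 none. Per gene the probe set with the highest mean was kept. A pseudocount of 5.7 (20th percentile) was added, deposited signals were taken to log2 and quantile normalized, and genes with means above the 40th percentile (5.10) were tested with limma 3.58.1 in R 4.3.3, on 6 group means with an intensity trend (residual degrees of freedom 18, median SE 0.189). On simulated data with 50 genes changed at each size, 10, 44, 48 and 50 were recovered at log2 sizes 0.5, 1, 2 and 4 among 5663 genes, with 7 false calls. The simulated noise was independent between arrays, unlike the same-letter deviations in the data. More genes were changed than were called in the data, so recovery there may be lower. With 4 arrays a group, array number limits the precision.

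Named genes were Ddit3, Atf4, Trib3, Ppp1r15a, Ero1a, Hspa5 and Car6, the 15 largest rises and 15 largest falls among called genes without overlap, up to 4 called members of each list and any against its majority, up to 6 abundant members of each marker list, and called genes within 5 Mb of Ddit3. The members and lists were chosen with earlier results of these data known. Medians and counts describe the lists, and no list was tested as a set. Same-letter untreated arrays of the genotypes were not treated as pairs (correlation of deviations 0.08, 0.10, −0.03 and −0.08), while those at 8 h correlated at 0.36, 0.42, 0.55 and 0.29, so the 4 h and 8 h contrasts were also fitted with the letter as a block within each time. Figures were drawn with Python 3.11.15 and matplotlib 3.10.9.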

Additional observations from a re-analysis of the deposited data

Results flagged for a closer look

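The genotype difference in Ddit3 was larger at 8 h of tunicamycin than in untreated cells (interaction −3.43, adjusted p = 0.00254, tested in the limma fit). Ddit3 stayed low in CHOP-/- cells (mean 14.7 untreated and 20.5 at 8 h), so this interaction restates the rise in wild type cells from 300 to 4383. Over many genes, a rule that chance meets in about 1 of 20 groups of 4 flags some arrays by chance alone. By this rule other values drew attention because 1 array lay far from the 3 others of its group. Among genes of the stress response and called genes these were Ero1a in wild type D (786.1, others 603.8 to 631.1), Slc7a3 in wild type A (250.9, others 142.2 to 149), Fgfr1op2 in wild type B (29.5, others 75.9 to 82.8) and Atf5 in CHOP-/- C (590.8, others 483.7 to 498).

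Among markers of other cells, wild type A was high for Gata1 (41.4), Hba-a1 (38.5) and Col2a1 (18.5), wild type B for Ibsp (27.7), and wild type C low for Tnni1 (39.7). In CHOP-/- cells, array A was high for Ibsp (20.6), B was high for Hba-a1 (14.7) and low for Sox10 (38.9), C was high for Klf1 (50.7) and Col11a1 (508.5), and D was high for Uty (7.8). High and low are relative to the other arrays of the group. The values given for Col2a1, Ibsp and Uty, and for Hba-a1 in CHOP-/- B, lay under the filter's signal of 28.6 and were not read as expression. Gata1, Hba-a1, Col2a1, Ibsp and Uty did not pass the filter and were not tested.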

How the results depend on the processing

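The count of 56 calls was recomputed in 23 other settings and no named difference changed sign while called. Only the 8 untreated arrays gave 23 calls (21 of the 56), the letters as a replicate block in those 8 arrays 7, and in all 24 arrays 72. The labels do not say whether the letters pair the untreated arrays. Their same-letter deviations hardly correlated (0.08, 0.1, −0.03 and −0.08), which cannot decide it, and Xist followed the letter. For these arrays the block is therefore a description. At 8 h every same-letter pair correlated above 0.1. The block within each time, added after seeing the data, gave 200 calls at 4 h against 138, 304 at 8 h against 237, and 1 gene against 2 for the change from untreated to 8 h. Of the 56 genes 44 were called at each later time with it. Array weights gave 88, a 2-fold minimum 25, and leaving out each array in turn 34 to 52. Without untreated wild type A and B there were 28, and without wild type A and B at every time, a setting chosen after seeing the data, 37, of which 25 were among the 56. The cause of these shifts, the smaller number of arrays included, was not tested. Median centring gave 41 calls, 53.7% of them higher against 62.5%, and no normalization 52 (69.2% higher). A random block of genotype and letter, also added later, gave 55. Mars1, the 1 call near Ddit3, was lost (0 calls) in the block of 8 arrays and in both settings without wild type A and B. Leaving out single arrays kept it at 1. Ddit3, Strap and Col15a1 kept their call in every setting that tested them. With 4 arrays a group, differences near 0.5 were mostly missed in the simulation, and signals under 28.6 have no exact fold.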

Other observations

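Probe sets without a gene symbol, or with several, were fitted apart. Of 673 tested, 3 were called, none higher and 3 lower in CHOP-/- cells.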
